A study of Mus musculus with 2 samples.

Results

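The Hippo pathway was described here through 10 of the 31053 genes in the matrix: the coactivators TAZ (Wwtr1) and YAP (Yap1), the TEAD transcription factors Tead1, Tead2, Tead3 and Tead4, and the regulators Lats1, Lats2, Amotl2 and Vgll4. They were chosen by name, with earlier results of these data known. Of the 10, 8 had a unique molecular identifier (UMI, which marks 1 captured RNA molecule) in a kept cell. In the cells with the surface tags of hematopoietic stem cells (HSCs), Wwtr1 was the YAP/TAZ transcript counted, with 151 UMIs against 4 of Yap1, and Tead2 was the main TEAD transcript, with 169 of the 200 TEAD UMIs. Wwtr1, Tead2 and Amotl2 were higher in those cells than in the other cells within both libraries, whereas Lats1, Lats2 and Vgll4 differed by less than 2-fold.

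Hippo signaling is a kinase cascade in which MST1 and MST2 activate LATS1 and LATS2, and these phosphorylate YAP and TAZ, which are then kept in the cytoplasm or degraded. Unphosphorylated YAP and TAZ enter the nucleus, where they do not bind DNA by themselves but act through TEAD factors. Angiomotin proteins such as AMOTL2 bind YAP and TAZ and hold them back, while VGLL4 competes with them for TEAD. Amotl2 and Lats2 are themselves induced by YAP/TAZ in many tissues, which closes a feedback loop. These protein-level steps are not visible in RNA counts.

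The cells were LSK cells (lineage-negative, Sca-1-positive, c-Kit-positive bone marrow cells, which hold HSCs and multipotent progenitors) sorted from young (3 to 5 months) and old (22 to 28 months) C57BL/6JRj mice, with no treatment named for either. They were profiled by CITE-Seq, which counts antibody tags (here against CD150, CD48 and CLCA3A1) beside the mRNA of each cell, with 1 library per age and the mice of an age not told apart. The barcode suffix 1 or 2 marks the library, and no source used here pairs a suffix with an age, so no comparison of ages was made and a difference between suffixes is a difference between 2 libraries. The gates were compared within each library and over both. The 2 libraries are of different ages and are not replicates of 1 condition, and no test across them was run, so the intervals given are exact 95% intervals that cover counting error only.

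Of 4688 cells, 4068 had under 10% mitochondrial UMIs and over 1500 genes, and 3986 of these had tags (1497 of suffix 1 and 2489 of suffix 2), with a median of 14968 UMIs per cell. No barcode was shared between the suffixes. The cells were divided into 4 gates at the 75th percentile of the CD150 tag and the 25th percentile of the CD48 tag of each suffix. CD150-high CD48-low is the SLAM phenotype of HSCs, and this gate, called the SLAM gate below, held 555 cells (172 of suffix 1 and 383 of suffix 2). The CD150-low CD48-low gate held 454 cells, the CD150-high CD48-high gate 450 and the CD150-low CD48-high gate 2527. The tags differed in scale between the libraries. The thresholds lay at 40 CD150 and 224 CD48 tags in suffix 1 and at 407 and 42 in suffix 2, so the CD150-high CD48-high cells of suffix 2 had a median of 78 CD48 tags, under the 111 of the SLAM gate of suffix 1.

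The gates were compared with marker genes. The 10 HSC markers summed to 1422 UMIs of these genes per 1000000 UMIs of the gate (CPM) in the SLAM gate, 1343 in the CD150-low CD48-low gate, 1198 in the CD150-high CD48-high gate and 652 in the CD150-low CD48-high gate. The first 2 of these gates had 1294 and 1314 CPM within suffix 1 and 1477 and 1368 CPM within suffix 2. Over both libraries Hlf was lower in the SLAM gate than in the CD150-low CD48-low gate (355 against 529 CPM). Each other HSC marker was higher there, Meis1 barely so (355 against 347 CPM). The 5 cycling markers summed to 63.3, 117, 560 and 801 CPM in the same order of gates, and to 167 and 18.8 CPM in the SLAM gate of suffix 1 and 2. The 5 markers of multipotent progenitors summed to 302, 892, 661 and 1675 CPM, and the 5 of lymphoid-primed progenitors to 11.8, 132, 107 and 624 CPM with Rag1 and Il7r at 0 in the SLAM gate. The 5 megakaryocyte markers summed to 74.9, 66.6, 208 and 55.0 CPM, the 8 endothelial markers to 152, 140, 137 and 112 CPM with Flt4 and Stab2 at 0 in the SLAM gate, the 7 stromal markers to 16, 15.4, 17.3 and 23.0 CPM with Pdgfra at 0 there, and the 10 mature blood markers to 19.0, 98.8, 91.6 and 188 CPM with Cd3e, Cd8a and Ly6g among those at 0 there. Cd3e and Ly6g had no UMI in any kept cell with tags. Rag1, Flt4, Stab2, Pdgfra and Cd8a had 17, 20, 3, 2 and 8 UMIs over all of these cells. The zeros of these genes thus do not set the SLAM gate apart, whereas Il7r had 233 UMIs in all. The part of all the markers above in the values below was not tested, other than by leaving out the cycling cells.

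Wwtr1 lies on the minus strand of chr3:57455649-57575910 and Yap1 on the minus strand of chr9:7931999-8004596 (GRCm38, GENCODE M21). Tead2 lies on the plus strand of chr7:45215753-45233644, where it overlaps Cd37 on the other strand, and Amotl2 on the plus strand of chr9:102716672-102733418. The 250 bases before the annotated start were searched for GGAATG, the core of the TEAD motif, on both strands (RefSeq promoters, GRCm38.p6, with an entry for 8 of the 10 genes). The core was present in the first entry of 5 of the 8 genes (Wwtr1, Yap1, Tead3, Amotl2 and Vgll4) and absent from those of Tead2, Lats1 and Lats2, while 12.6% of all 27025 first entries held it. The upstream window of Wwtr1, the TAZ gene, is shown because Wwtr1 carries the main result. It runs over chr3:57575911-57576160 on the minus strand, 5′ to 3′, directly before the first exon, and the capitals mark the core, which begins 136 bases before the start.
Wwtr1: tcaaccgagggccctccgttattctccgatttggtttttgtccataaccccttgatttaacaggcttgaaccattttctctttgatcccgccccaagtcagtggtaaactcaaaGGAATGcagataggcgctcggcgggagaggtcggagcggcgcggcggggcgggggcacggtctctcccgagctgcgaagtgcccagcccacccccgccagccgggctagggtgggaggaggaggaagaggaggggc

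The cores of the 2 coactivator genes and of Amotl2 and Vgll4 are set side by side in windows of 26 bases, each read on the minus strand, to show the letters around each core. The windows lie at chr3:57576031-57576056, chr9:8004722-8004747, chr9:102717729-102717754 and chr6:114969270-114969295.
Wwtr1: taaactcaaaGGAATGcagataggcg
Yap1: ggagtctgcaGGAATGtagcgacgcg
Amotl2: tgctatgccaGGAATGtgagagtttc
Vgll4: agtggggtggGGAATGctgagaaatg
A match describes the letters in the window and not a bound site. Wwtr1 and Yap1 both carry the core, and their RNA levels were far apart.

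Wwtr1 had its highest level in the SLAM gate, which held 151 of its 399 UMIs. Its level was 20.1 CPM in the SLAM gate (17.0 to 23.6), 11.8 in the CD150-high CD48-high gate (9.64 to 14.2), 8.69 in the CD150-low CD48-low gate (6.39 to 11.6) and 1.94 in the CD150-low CD48-high gate (1.57 to 2.37). By suffix, the SLAM gate held 4.88 CPM in suffix 1 (11 UMIs) and 26.6 CPM in suffix 2 (140 UMIs), and the CD150-low CD48-high gate 0.227 and 2.92 CPM. The CD150-low CD48-low gate held 0.396 CPM in suffix 1 (1 UMI) and 16 CPM in suffix 2 (46 UMIs), and the CD150-high CD48-high gate 3.01 and 20.9 CPM. Over both libraries the intervals of these 2 gates overlap each other and lie apart from those of the SLAM gate and of the CD150-low CD48-high gate. In suffix 1 the CD150-low CD48-low gate (0.010 to 2.21) overlaps the CD150-low CD48-high gate (0.0618 to 0.581), so its middle place rests on suffix 2.

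Against the other 3 gates together, Wwtr1 was 5.10-fold higher in the SLAM gate (4.14 to 6.27), and 6.38-fold (2.74 to 14.1) and 4.43-fold (3.56 to 5.49) higher within suffix 1 and 2. Against the CD150-low CD48-high gate alone the ratio was 10.4 (7.95 to 13.5). Against the CD150-high CD48-high gate it was 1.71 over both libraries (1.32 to 2.21), but 1.62 (0.667 to 3.85) and 1.27 (0.971 to 1.67) within them, so that the interval held 1 within either library. Against the CD150-low CD48-low gate it was 2.31 (1.65 to 3.28), with 12.3 within suffix 1 on 11 and 1 UMIs (1.79 to 531) and 1.66 within suffix 2 (1.18 to 2.37). Without the cells that had at least 2 UMIs of cycling genes, the ratio to the other 3 gates was 3.35 (2.68 to 4.16).

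Yap1 was close to the limit of detection in every gate. Over all kept cells it had 30 UMIs, 1 in each of 30 cells, of which 4 were in the SLAM gate, 6 in the CD150-low CD48-low gate, 6 in the CD150-high CD48-high gate and 14 in the CD150-low CD48-high gate. The level was 0.532 CPM in the SLAM gate (0.145 to 1.36) and 0.413 CPM in the other 3 gates (0.270 to 0.605), with a ratio of 1.29 whose interval ran from 0.327 to 3.71. A difference between the SLAM gate and the others was thus not detectable at this depth, although the interval lay above 1 with both tags split at the median (2.80, 1.28 to 6.19). Between the other gates, the CD150-low CD48-low gate was 3.84-fold above the CD150-low CD48-high gate on 6 and 14 UMIs (1.21 to 10.6), with 2.79 (0.266 to 17.1) and 4.76 (1.07 to 17.1) within suffix 1 and 2.

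A UMI count from the 3′ end of a transcript does not grow with transcript length, so genes are compared in UMIs here, although capture can differ between them. In the SLAM gate 37.8 UMIs of Wwtr1 were counted for each UMI of Yap1 (14.4 to 140), with 11.0 in suffix 1 (1.60 to 473) and 46.7 in suffix 2 (15.6 to 229). The ratio was 17.8 in the CD150-high CD48-high gate (7.93 to 49.7), 7.83 in the CD150-low CD48-low gate (3.34 to 22.4) and 6.71 in the CD150-low CD48-high gate (3.81 to 12.8). In suffix 1 both genes were rare in the 2 CD150-low gates, with 4 UMIs of Wwtr1 and 5 of Yap1 in the 912 CD48-high cells and 1 and 2 UMIs in the 204 CD48-low cells. The ratio of the CD150-low CD48-low gate thus came from suffix 2, where it was 11.5 (4.2 to 44.0).

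**Figure D1:**
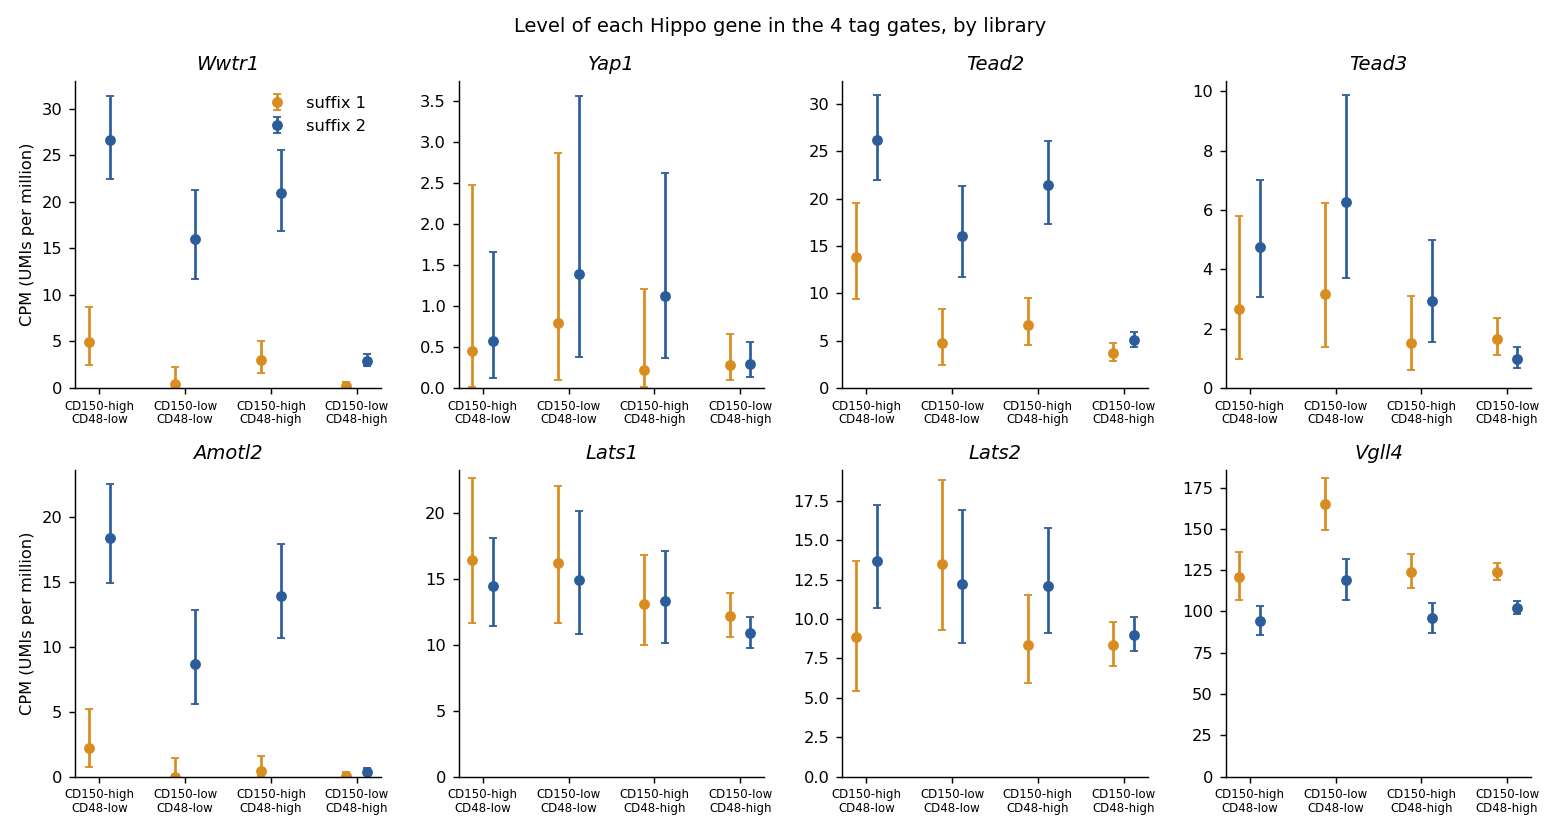
Level of each Hippo gene with a UMI (y axis, CPM, from 0) in the 4 tag gates (x axis) for suffix 1 and suffix 2, with bars for the exact 95% Poisson interval. Wwtr1, Tead2 and Amotl2 stood highest in the CD150-high CD48-low gate of both libraries (26.6, 26.2 and 18.4 CPM in suffix 2) and lowest or near lowest in the CD150-low CD48-high gate, while Lats1 and Lats2 lay between 8.33 and 16.4 CPM throughout.

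Among the TEAD factors, which carry YAP and TAZ to DNA, Tead2 was the main one in the SLAM gate. Tead1 and Tead4 had no UMI in any of the 4688 cells, and for the 4068 kept cells a count of 0 allows a share of up to 0.0737% of cells with a UMI. In all, 11585 genes of the matrix (37.3%) had no UMI. Whether the 3′ ends of Tead1 and Tead4 lie within the annotation used for counting was not tested, so shares of TEAD UMIs are shares of what was counted. Tead1 also overlaps Gm44462 on the same strand, and the part of this overlap in its count of 0 was not tested. Tead2 made up 84.5% of the TEAD UMIs in the SLAM gate (78.7% to 89.2%), with 83.8% in suffix 1 (31 of 37 UMIs) and 84.7% in suffix 2 (138 of 163 UMIs), and Tead3 made up the other 15.5%.

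Tead2 had 22.5 CPM in the SLAM gate (19.2 to 26.1), 13.8 in the CD150-high CD48-high gate (11.5 to 16.5), 10.7 in the CD150-low CD48-low gate (8.15 to 13.9) and 4.56 in the CD150-low CD48-high gate (3.98 to 5.20). This is the same order as that of Wwtr1, with a flatter slope. The ratio of the SLAM gate to the other 3 gates was 3.50 (2.90 to 4.19), and 3.16 (2.05 to 4.75) and 3.37 (2.73 to 4.13) within suffix 1 and 2. Against the CD150-high CD48-high gate it was 2.07 within suffix 1 (1.21 to 3.51) and 1.23 within suffix 2 (0.937 to 1.61).

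Tead3 was rarer, with its highest levels in the CD48-low gates. It had 4.12 CPM in the SLAM gate (2.80 to 5.85), 4.81 in the CD150-low CD48-low gate (3.14 to 7.05), 2.20 in the CD150-high CD48-high gate (1.34 to 3.39) and 1.22 in the CD150-low CD48-high gate (0.926 to 1.57). The ratio of the SLAM gate to the CD150-low CD48-low gate was 0.857 (0.493 to 1.5), which leaves these gates not distinguishable at this depth. To the CD150-high CD48-high gate it was 1.88 (1.04 to 3.47), with intervals that held 1 within each suffix. Against the other 3 gates the ratio was 2.47 (1.60 to 3.72), with 1.5 in suffix 1 (0.523 to 3.54) and 2.97 in suffix 2 (1.79 to 4.8). Over both libraries the Tead3 share of TEAD UMIs was 31.0% in the CD150-low CD48-low gate (21.3% to 42.0%) and 13.7% in the CD150-high CD48-high gate (8.57% to 20.4%), whose interval overlaps that of the SLAM gate (10.8% to 21.3%).

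**Figure D2:**
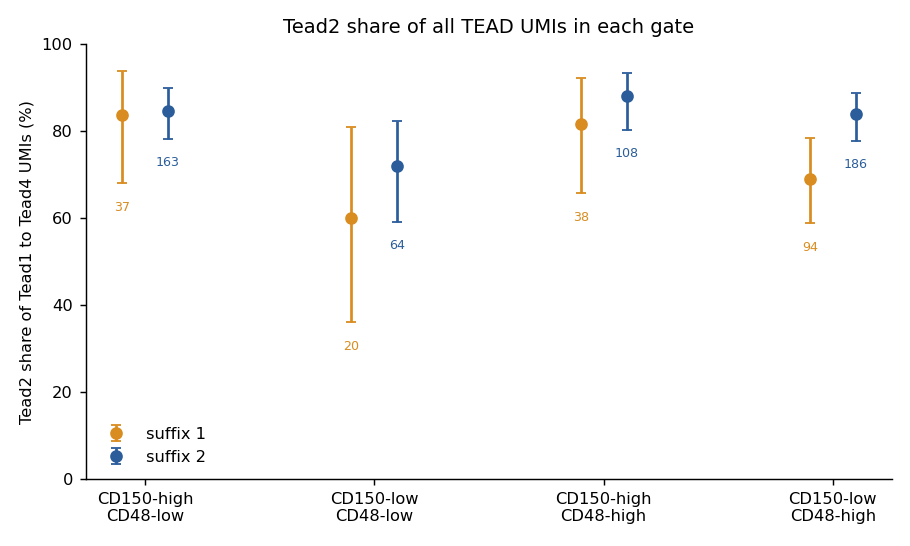
Tead2 share of the UMIs of Tead1 to Tead4 (y axis, percent) in the 4 gates (x axis) for suffix 1 and suffix 2, with exact 95% binomial intervals and the number of TEAD UMIs under each bar. Tead2 was over 60% in all but 1 point, the CD150-low CD48-low gate of suffix 1, which was at 60% with 20 UMIs.

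Amotl2, an angiomotin family member that binds TAZ and YAP and is also a YAP/TAZ target, was scarce in the CD150-low CD48-high gate. Its level was 13.6 CPM in the SLAM gate (11.1 to 16.5), 7.03 in the CD150-high CD48-high gate (5.42 to 8.98), 4.62 in the CD150-low CD48-low gate (2.99 to 6.83) and 0.268 in the CD150-low CD48-high gate (0.143 to 0.459). The ratio to the other 3 gates was 8.38 (6.30 to 11.1), and to the CD150-low CD48-high gate 50.6 (28.3 to 98.3). To the CD150-high CD48-high gate it was 1.93 over both libraries (1.40 to 2.68), but the interval held 1 within suffix 1 (5.17, 0.846 to 54.3) and within suffix 2 (1.32, 0.95 to 1.85). Nearly all of these counts came from suffix 2, with 97 UMIs in its SLAM gate against 5 in that of suffix 1. The ratio to the other 3 gates was 18.4 within suffix 1 on 5 and 3 UMIs (3.57 to 118) and 7.10 within suffix 2 (5.31 to 9.49). It was above that of Wwtr1 over both libraries, but with CD150 split at the 90th and CD48 at the 10th percentile it was 3.04, under Wwtr1 (3.50) and Tead2 (4.36), and with cells of over 2500 genes and under 5% mitochondrial UMIs it was 16.1, under Wwtr1 (28.2).

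The LATS kinases, which restrain YAP and TAZ, were nearly level over the gates. Lats1 had 15 CPM in the SLAM gate (12.4 to 18.1) and between 11.3 and 15.5 in the others, and Lats2 had 12.2 CPM (9.86 to 15) and between 8.75 and 12.8. The ratio of the SLAM gate to the other 3 gates was 1.26 for Lats1 (1.02 to 1.53) and 1.32 for Lats2 (1.04 to 1.64). For Lats1 the ratios within suffix 1 and 2 were 1.29 and 1.26, and for Lats2 they were 1.0 (0.600 to 1.59) and 1.43 (1.09 to 1.84).

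Vgll4, the TEAD cofactor that competes with YAP and TAZ, was the most abundant member in every gate. It had 102 CPM in the SLAM gate (95 to 110), 140 in the CD150-low CD48-low gate (130 to 151), 110 in the CD150-high CD48-high gate (104 to 117) and 110 in the CD150-low CD48-high gate (107 to 113). It was lower in the SLAM gate than in the CD150-low CD48-low gate, by a ratio of 0.728 over both libraries (0.658 to 0.806), 0.736 in suffix 1 and 0.791 in suffix 2. In the SLAM gate the order of levels over both libraries was Vgll4, Tead2, Wwtr1, Lats1, Amotl2, Lats2, Tead3 and Yap1, in which the intervals overlap for each pair of neighbours from Tead2 to Lats2. In the SLAM gate of suffix 1 Lats1 (16.4 CPM) and Tead2 (13.8 CPM) stood above Lats2 (8.88 CPM) and Wwtr1 (4.88 CPM).

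To set the members against all genes, a gene was called past 2-fold where its CPM plus 1 differed by at least 2-fold the same way within both suffixes. Of 12606 genes with at least 50 UMIs, 3.19% were called higher in the SLAM gate than in the other 3 gates and 3.87% lower, 7.06% in all. Of the 10 members 7 had 50 UMIs, Yap1, Tead1 and Tead4 falling short, and 3 were called higher (Wwtr1, Tead2 and Amotl2) and none lower. The count was 0 with a pseudocount of 10 CPM, 0 with cells of over 2500 genes and under 5% mitochondrial UMIs and 1 (Tead2) in suffix 1 alone. That stricter cell filter left 57 SLAM cells. The ratios there were 28.2 for Wwtr1 (8.86 to 118), 16.1 for Amotl2 (2.31 to 178) and 4.34 for Tead2 (2.10 to 8.63). On the log2 scale of CPM plus 1 the differences were 2.48 for Amotl2, 2.09 for Wwtr1, 1.66 for Tead2, 0.94 for Tead3, 0.36 for Lats2, 0.30 for Lats1 and -0.14 for Vgll4. The median of the 7 was 0.94, and that of all genes tested -0.03. Amotl2 lay above 99.7% of the genes tested, Wwtr1 above 99.2% and Tead2 above 98.3%. The members were chosen with earlier results of these data known, so these counts and ranks describe them and are not a test. Against the CD150-low CD48-high gate alone the same 3 members were called higher and none lower, where 4.60% of genes were higher and 4.39% lower.

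**Figure D3:**
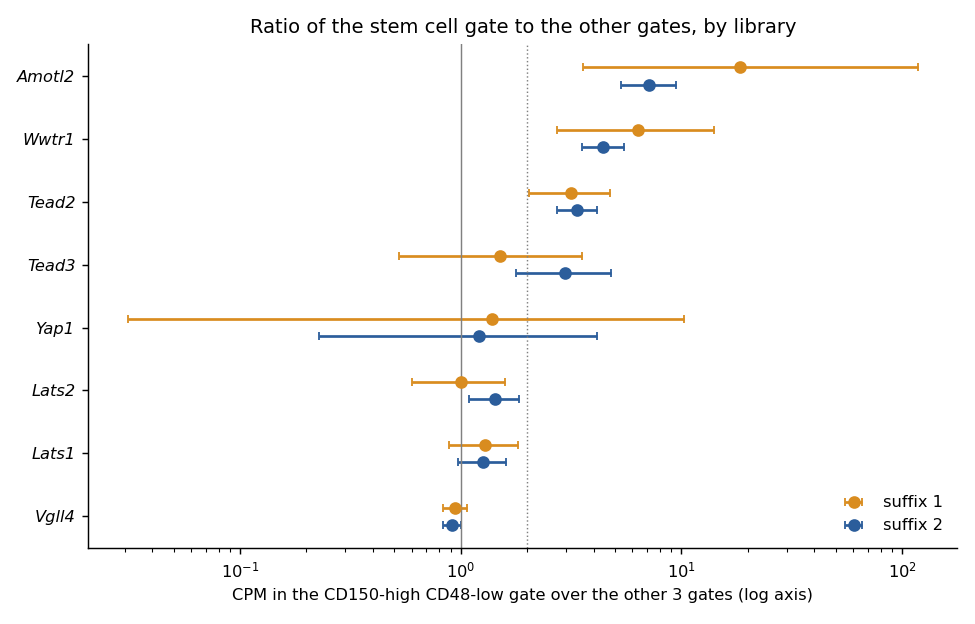
Ratio of CPM in the CD150-high CD48-low gate to the other 3 gates (x axis, log scale) for the 8 genes with a UMI, with exact conditional 95% intervals, a solid line at 1 and a dotted line at 2. For Amotl2, Wwtr1 and Tead2 the intervals of both suffixes lie above 2, and for Vgll4 the ratios were 0.945 and 0.915.

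**Figure D4:**
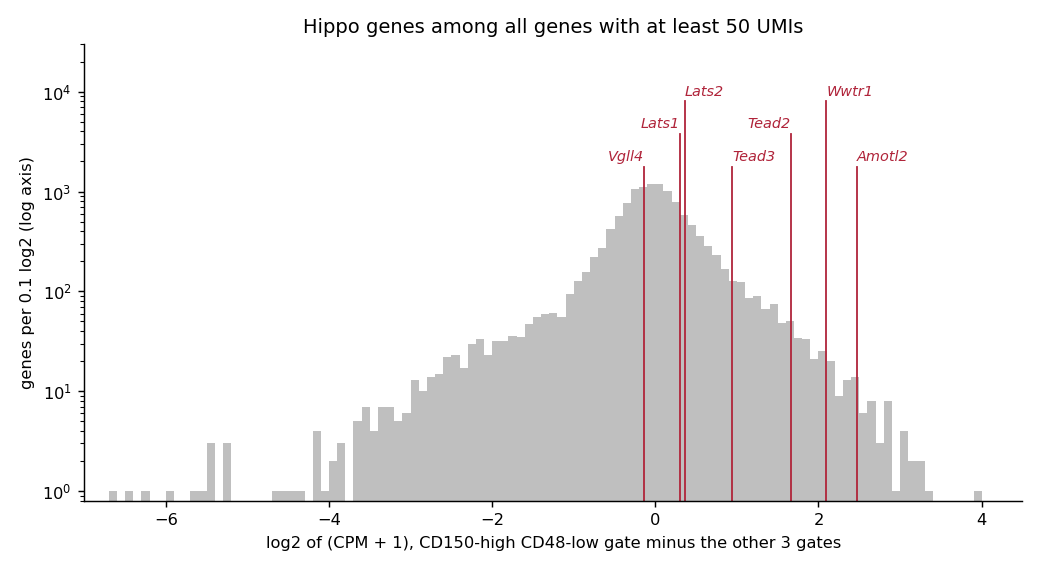
Distribution over 12606 genes of the log2 difference in CPM plus 1 between the CD150-high CD48-low gate and the other 3 gates over both libraries (x axis), as genes per bin (y axis, log scale), with the 7 members tested as red lines. Amotl2 (2.48), Wwtr1 (2.09) and Tead2 (1.66) lie in the right tail, and Vgll4 (-0.14), Lats1 (0.30) and Lats2 (0.36) in the bulk.

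Within the CD48-low cells, the level of the same 3 genes grew with the CD150 tag. From the lowest to the highest CD150 quartile of these cells Wwtr1 had 6.54, 14.7, 18.1 and 20.8 CPM, Tead2 10.1, 15.4, 18.7 and 24.7 CPM and Amotl2 2.29, 10.4, 11.9 and 13.9 CPM. Over both libraries the intervals of the lowest and highest quartiles did not overlap for any of the 3, but within suffix 1 they overlapped for all 3, on 7 UMIs of Wwtr1, 17 of Tead2 and 4 of Amotl2 in the highest quartile. The largest step for Wwtr1 and Amotl2 was that from the first to the second quartile over both libraries. It came from suffix 2, where Wwtr1 went from 10.8 to 23.4 CPM, while in suffix 1 both genes had no UMI in either of those quartiles.

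Vgll4 went the other way, with 141, 130, 118 and 88.5 CPM. In suffix 1 it had 171, 168, 134 and 106 CPM and in suffix 2 121, 108, 109 and 79.2 CPM, and in both libraries the interval of the highest quartile lay under that of the lowest. Tead3 had 4.90, 5.68, 4.29 and 3.05 CPM, with overlapping intervals.

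**Figure D5:**
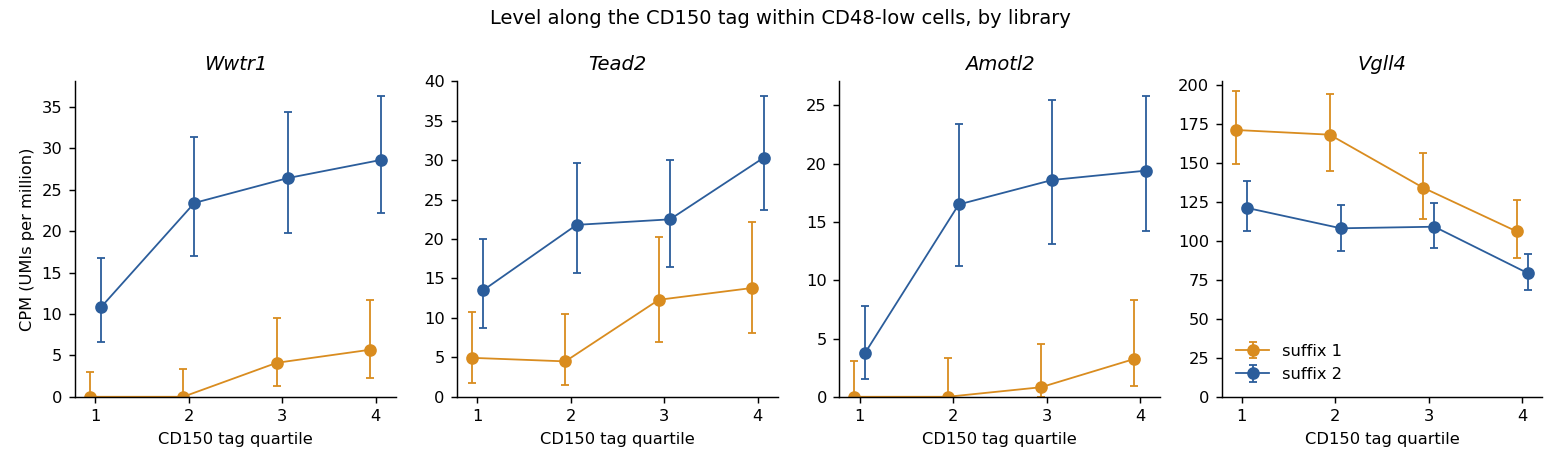
Level (y axis, CPM, from 0) of Wwtr1, Tead2, Amotl2 and Vgll4 in CD48-low cells by quartile of the CD150 tag within each suffix (x axis), with exact 95% Poisson intervals. In suffix 2 Wwtr1 went from 10.8 to 28.6 CPM and Vgll4 from 121 to 79.2 CPM from the first to the fourth quartile.

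CLCA3A1 is a surface protein that was stained along with the SLAM markers, and its tag was split at its median within the SLAM gate of each suffix (25 and 214 tags). Over all cells Wwtr1 had 0.861, 2.01, 6.72 and 13.6 CPM from the lowest to the highest quartile of this tag. Within the SLAM gate, however, Wwtr1 had 21.9 CPM above the median and 18.0 at or under it, a ratio of 1.22 (0.872 to 1.71), with 1.60 (0.407 to 7.46) and 1.18 (0.837 to 1.68) in suffix 1 and 2. The ratio was 1.10 for Tead2 (0.801 to 1.51), 1.14 for Amotl2 (0.755 to 1.72), 1.33 for Lats2 (0.863 to 2.08) and 0.944 for Vgll4 (0.818 to 1.09). None of the 7 members was called past 2-fold. Of 11076 genes with at least 20 UMIs in the gate 0.144% were higher and 0.0361% lower, 0.181% in all.

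Wwtr1, Amotl2 and Tead2 also differed between the 2 libraries. In the SLAM gate Wwtr1 was 5.44-fold higher in suffix 2 than in suffix 1 (2.95 to 11.2), Amotl2 8.30-fold (3.44 to 26.1) and Tead2 1.90-fold (1.28 to 2.91). Vgll4 was lower in suffix 2, by a ratio of 0.775 (0.668 to 0.902). For Lats1 (0.878, 0.586 to 1.34), Lats2 (1.54, 0.927 to 2.67), Tead3 (1.78, 0.714 to 5.31) and Yap1 (1.28, 0.103 to 67.3) the interval held 1.

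By the 2-fold rule, 2 of the 7 members (Wwtr1 and Amotl2) were higher in the SLAM gate of suffix 2 and none was lower. Of 11076 genes, 3.94% were higher and 3.08% lower (7.02% in all). Wwtr1 had 140 UMIs there and 11 in the SLAM gate of suffix 1, and Amotl2 had 97 and 5. Both thus met the filter of 20 UMIs in the gate only through suffix 2, the library in which they were higher. The same 2 were higher in the other 3 gates together, and none was lower. The ratio was 7.84 for Wwtr1 on 229 and 19 UMIs (4.91 to 13.3). It was 21.5 for Amotl2 on 99 and 3 UMIs (7.13 to 106). Of 12606 genes, 1.38% were higher and 0.420% lower (1.80% in all). Over all gates suffix 1 held 30 UMIs of Wwtr1 and 8 of Amotl2, so both met the filter of 50 UMIs only through suffix 2. The shares of all genes are therefore no test of the calls of Wwtr1 and Amotl2 between the libraries. The gates were cut at different tag counts in the 2 libraries, the cycling markers were lower in the SLAM gate of suffix 2 (18.8 against 167 CPM), and so were the 5 markers of multipotent progenitors (179 against 588 CPM). None of these was tested as a source of these differences, and the ages of the libraries cannot be told apart from the libraries themselves.

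In single cells the members were detected sparsely. In the SLAM gate 21.8% of cells had a Wwtr1 UMI (18.4% to 25.5%), with 5.81% in suffix 1 and 29.0% in suffix 2, 25.9% a Tead2 UMI, 15.7% an Amotl2 UMI and 73.3% a Vgll4 UMI. To compare shares at 1 depth, cells were thinned to 9000 UMIs each, which left out 36 cells of the SLAM gate and 180 of the others. The shares were then 15.2% for Wwtr1 (12.2% to 18.6%), 18.7% for Tead2, 11.9% for Amotl2, 12.3% for Lats1, 8.29% for Lats2, 4.05% for Tead3, 0.193% for Yap1 and 60.3% for Vgll4.

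The shares were set beside those of the 527 cells of the CD150-low CD48-high gate with at least 5 UMIs of Dntt, a lymphoid gene. Their median depth was 22272 UMIs against 13334 in the SLAM gate. These cells hold transcripts of their own, so a share there is not a measure of free RNA alone. Of the 524 that could be thinned, none had a Wwtr1 or an Amotl2 UMI after thinning (0.190% of all 527 cells had a Wwtr1 UMI before it), which allows a share of up to 0.573%, while 2.10% had a Tead2 UMI and 64.9% a Vgll4 UMI. The Yap1 share was 0.191% there and 0.193% in the SLAM gate, on 1 cell each. These cells thus do not settle whether the Yap1 UMIs of the SLAM gate are background. Wwtr1, Tead2 and Amotl2 were above these shares in the SLAM gate.

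The cells with a UMI carried the tags of the gate to different degrees, where the gate itself held 11.5% and 15.4% of the cells with tags of suffix 1 and 2. Of 175 cells with an Amotl2 UMI 49.7% were in the SLAM gate (42.1% to 57.4%), of 335 with Wwtr1 36.1% (31.0% to 41.5%), of 501 with Tead2 28.7% (24.8% to 32.9%), of 130 with Tead3 23.1% (16.1% to 31.3%, with 12.2% in suffix 1 and 29.6% in suffix 2) and of 30 with Yap1 13.3% (3.76% to 30.7%). For Lats1, Lats2 and Vgll4, which were spread over all gates, the shares were 12.5%, 13.9% and 12.8%.

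Whether the members met in the same cells was read within the SLAM gate after thinning. A Tead2 UMI was found in 25.3% of the 79 cells with Wwtr1 (16.2% to 36.4%) and in 17.5% of the 440 without it (14.1% to 21.4%), and a Tead3 UMI in 8.86% (3.64% to 17.4%) and 3.18% (1.75% to 5.28%). Amotl2 was found in 12.7% of the cells with Wwtr1 (6.24% to 22.0%) and in 11.8% of those without (8.95% to 15.2%). The intervals overlap in each pair, which does not show that the shares are alike, and within the 73 cells of suffix 2 with Wwtr1 the Amotl2 share was 13.7% against 16.2% of the 290 without.

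Other genes of the pathway were read against the same background of 3.19% of genes higher and 3.87% lower, and their counts are too small to set them apart from it. Of 15 genes of the kinase core found, from Stk3 and Stk4 (MST2 and MST1) to the MAP4K and TAOK kinases, all had 50 UMIs and none was called past 2-fold between the SLAM gate and the other gates, with a median log2 difference of -0.01. Likewise none of 10 genes of the STRIPAK phosphatase complex (median -0.09) and none of 6 tested TEAD cofactors and partners (median -0.13) was called. Of 14 tested upstream regulators 2 were higher and none lower (median 0.20). These were Ptpn14, a phosphatase that binds YAP, with 17.7 CPM in the SLAM gate and 4.06 in the others (ratio 4.35, 3.50 to 5.39, and 3.02 and 4.33 in suffix 1 and 2), and the polarity gene Crb3, with 7.85 and 2.27 CPM (ratio 3.46, 2.51 to 4.71, and 3.05 and 3.47 in suffix 1 and 2).

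Among 22 genes known as YAP/TAZ targets in other tissues, 12 had 50 UMIs, 2 were called higher (Amotl2 and Ptpn14) and none lower, with a median log2 difference of 0.89. Both were counted above, as a member and as an upstream regulator, and 3.19% of all genes were higher and 3.87% lower. Of the targets used most often as reporters, Ctgf and Ankrd1 had no UMI and Cyr61 had 9 in all.

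The genes whose pattern was most like that of a member were found by Pearson's r of log2 CPM plus 1 over the 8 sums of a gate and a suffix, among 10795 genes with at least 200 UMIs. The 8 points share 2 libraries, so these values describe and test nothing. For Wwtr1 they were Itgb3 (0.998), a platelet and megakaryocyte integrin subunit, Gm42517 (0.991), Clca3a1 (0.990), Sult1a1 and Podnl1. For Tead2, taken after Tead1 was seen to have no UMI, they were Prune2 (0.998), Uba7 (0.995), Kif21a, Ghr and Sox18, and for Amotl2 Chrm3 (0.993), Wwp2 (0.992), Ramp2 and Trpc1. Between the members r was 0.954 for Wwtr1 and Tead2, 0.965 for Wwtr1 and Amotl2 and 0.968 for Tead2 and Amotl2, but -0.744 for Wwtr1 and Vgll4 and 0.149 for Wwtr1 and Lats1.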

How the data were processed

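LSK cells were sorted from young and old C57BL/6JRj mice, and 1 Chromium Single Cell 3′ (v3) library was made per age. The deposited matrix holds whole UMI counts per gene and cell, which the authors made with Cell Ranger (version 3.1.0 and build mm10/GRCm38 in the submitters' processing notes) and aggregated over both libraries, a step that evens out their depth. The deposited tag table holds log10 tag counts per cell, counted with CITE-seq-Count; these were turned back into tags, and a cell with 0 tags was placed below all others. Depth was 27073429 and 43434366 UMIs in the kept cells with tags of suffix 1 and 2.

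UMIs were summed per gate and suffix and divided by the summed UMIs (CPM). Levels carry exact Poisson, shares exact Clopper-Pearson and ratios exact conditional binomial 95% intervals, and a count of 0 was given a limit of 3 counts. Calls used a pseudocount of 1 CPM and at least 50 UMIs per gene over both libraries. The calling step was tested on simulated data. Scrublet, run through scanpy 1.11.5 with a prior doublet rate of 0.06, marked 5 cells of suffix 1 and 32 of suffix 2, none in the SLAM gate; they were removed in an alternative only. Promoters came from RefSeq (GRCm38.p6), and loci from GENCODE M21. numpy 2.4.6 and scipy 1.17.1 were used.

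The genes named are the 10 members, listed pathway genes past 2-fold in both suffixes (at most 6 per list) and the 5 genes most like Wwtr1, Tead2 and Amotl2, of which 1 is not reported here. The members, lists and tests were chosen with earlier results of these data known. Old and young cells were not compared, since no suffix is paired with an age. Alternatives changed the cell filter, the gates, the scaling, the depth, the pseudocount and the gene filter.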

Additional observations from a re-analysis of the deposited data

How the results depend on the processing

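Each age has 1 library and no suffix is paired with an age, so the young and old samples could not be paired. For the gates, which both libraries hold, the values within each library are given, and a fit with the library as a block was not run. The planned ratio of Wwtr1 between old and young was not run, because no suffix is paired with an age. The Wwtr1 ratio of the SLAM gate to the other gates was above 1 under all 15 alternatives, from 3.35 to 28.2. It moved out of its interval to 28.2 with cells of over 2500 genes and under 5% mitochondrial UMIs (57 SLAM cells), to 9.18 with both tags split at the median, to 3.50 with CD150 split at the 90th and CD48 at the 10th percentile, to 7.97 with percentiles over both suffixes pooled, to 6.38 in suffix 1 alone, to 3.35 without cycling cells and to 10.4 against the CD150-low CD48-high gate alone. With over 2500 genes and under 5% mitochondrial UMIs the SLAM gate had a Yap1 level of 0 CPM on 14 Wwtr1 UMIs, so that their ratio has no value, and in suffix 1 alone the Wwtr1 to Yap1 ratio was 11.0. Tead1 has no UMI in any cell, so its share is 0 by construction and the alternatives say nothing of it. The Tead2 share, a result added after seeing the data, ran from 82.4% to 89.5%, the highest with the 90th and 10th percentiles. The count of members called higher was 0 with over 2500 genes and under 5% mitochondrial UMIs (2.45% of all genes were called higher there), 0 with a pseudocount of 10 CPM (0.492%) and 1 (Tead2) in suffix 1 alone (3.24%), where Wwtr1 and Amotl2 have under 50 UMIs. It was 2 to 4 under the other 16. With both tags split at the median Amotl2 was not called, although its ratio was 19.3, and with pooled percentiles and in suffix 2 alone Tead3 was called too. The Amotl2 ratio ran from 3.04 to 50.6 and moved out of its interval under 8 of 15 alternatives, to 4.8 without cycling cells. No ratio of a called member turned below 1. Few UMIs limit the precision for Yap1 (30 in all) and, in suffix 1, for Wwtr1 (30) and Amotl2 (8), and Tead1 and Tead4 have none.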
